A study of Mus musculus with 24 samples.

Results

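The albumin and alpha-fetoprotein window was taken as mm9 chromosome 5 from 90850000 to 90960000, with Alb set at 90889900 to 90906000 and Afp downstream of it. Every deposited peak or region that overlapped this window by at least 1 bp was a member, and 227 of the 665214 peaks and regions in the 23 lists did so. Distances are given in kb from the Alb start, negative upstream, so the window ran 39900 bp upstream and 54000 bp downstream of the 16101 bp of Alb.

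Albumin, encoded by Alb, is the main protein that hepatocytes secrete into plasma, and its gene is among the most actively transcribed of the adult liver. Alpha-fetoprotein, encoded by Afp, is its fetal counterpart, silenced after birth and switched on again in regenerating liver and in hepatocellular carcinoma. H3K4me3 marks promoters, H3K27ac active promoters and enhancers, H3K4me1 enhancers and the flanks of promoters. Myc binds E-boxes, TEAD binds its own short motif, and YAP has no DNA-binding domain and reaches chromatin through partners such as TEAD.

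The samples were dissected mouse livers, all carrying R26-rtTA, a doxycycline-dependent activator expressed from a broadly active locus. They carried no further transgene (wild-type), tet-Myc, tet-YAP or both (tet-Myc/YAP, here also called doubly transgenic), and per the study's methods doxycycline was given in the food for 2 days and the YAP transgene, placed at Col1A1, encodes an activated serine-to-alanine form. Whole liver was used, so hepatocytes were not separated from other cells, and nothing read here says whether animals were pooled. H3K4me3, H3K27ac, RNA polymerase II, TEAD and Myc were profiled by chromatin immunoprecipitation with sequencing (ChIP-seq) in all 4 genotypes, H3K4me1 in wild-type alone, and YAP in the livers with its transgene, tet-YAP and tet-Myc/YAP. Each antibody and genotype was 1 library, so no value below carries a replicate error and no difference between genotypes could be tested.

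Library depth was 31.6 to 33.1 M ChIP tags for TEAD, but 20.9 (wild-type) to 50.6 (tet-Myc) M for RNA polymerase II and 16.9 (tet-Myc/YAP) to 29.7 (wild-type) M for Myc. The Myc library of wild-type and the YAP library of tet-YAP stood apart. Their fragment sizes, as estimated by the peak caller, were 51 and 56 bp against tags of 51 bp, and their median peak widths were 81 and 98 bp, where the other 12 narrow lists had 521 to 749 bp. The YAP list of tet-Myc/YAP was called with 17.4 M ChIP tags against 167.0 M control tags. In the other narrow lists the control held about as many tags as the ChIP. For these reasons, fold enrichment (ChIP over control at the peak) was read against the other peaks of the same list, as a rank or as a percentile, the percent of the list's peaks with lower fold enrichment.

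The promoters of both genes are shown because Alb carried the strongest polymerase II signal of the window and Afp is the member that adult liver is known to keep silent. The sequences are the 250 bases before each annotated start in the RefSeq table, at chr5:90460620-90460869 for Alb and chr5:90490464-90490713 for Afp in GRCm38.p6, both on the plus strand and written 5' to 3'. Capitals mark matches, on either strand, to CANNTG (an E-box), GTTAAT (an HNF1 half-site), TTNNGNAA (C/EBP), CCAAT or TATAAA.
Alb: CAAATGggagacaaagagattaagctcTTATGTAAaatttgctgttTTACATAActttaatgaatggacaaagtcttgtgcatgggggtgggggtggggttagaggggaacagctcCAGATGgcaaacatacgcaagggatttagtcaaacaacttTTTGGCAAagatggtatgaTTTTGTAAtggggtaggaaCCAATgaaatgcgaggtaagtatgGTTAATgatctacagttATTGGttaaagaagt
Afp: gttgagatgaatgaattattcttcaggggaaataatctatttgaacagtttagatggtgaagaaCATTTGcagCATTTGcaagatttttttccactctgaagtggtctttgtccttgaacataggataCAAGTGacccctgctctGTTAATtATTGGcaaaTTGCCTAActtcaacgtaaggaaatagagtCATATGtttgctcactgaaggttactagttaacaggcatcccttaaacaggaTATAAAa

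The Alb promoter held 4 matches to the C/EBP motif, 2 to CCAAT, 1 to the HNF1 half-site and 2 to CANNTG. The Afp promoter held 1 C/EBP match, 1 CCAAT, 1 HNF1 half-site, 1 TATAAA and 4 CANNTG matches. Neither held the TEAD motif GGAATG or the E-box CACGTG, which is also a form of CANNTG. Among 32536 distinct promoter sequences of this length, 36.8% held a C/EBP match, 33.8% CCAAT, 6.47% the HNF1 half-site, 12.3% TATAAA, 66.2% CANNTG, 12.6% GGAATG and 6.04% CACGTG. HNF1 and C/EBP proteins are liver-enriched transcription factors, and the half-site found in both promoters is the rarest of the motifs matched here. The promoters begin 29844 bases apart in that build. The sources used here give no mm9 position for Afp, and no coordinate was carried from one build to the other, so regions downstream of Alb are described by position and not assigned to Afp or to Afm, the gene that follows it in the RefSeq order.

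Alb lay inside active chromatin in all 4 genotypes. RNA polymerase II peaks covered 97.5% of the Alb span in wild-type, 97.6% in tet-Myc liver, 97.5% in tet-YAP liver and 97.4% in tet-Myc/YAP, and H3K27ac covered 100% in each. H3K4me3, in most genes a narrow mark at the start, covered 69.8% of Alb in wild-type, 72.6% in tet-Myc liver, 75.6% in tet-YAP liver and 61.0% in tet-Myc/YAP. The liver label was thus met at Alb, the marker of hepatocytes. Afp, the marker of fetal hepatocytes and hepatocellular carcinoma, could not be placed.

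**Figure D1:**
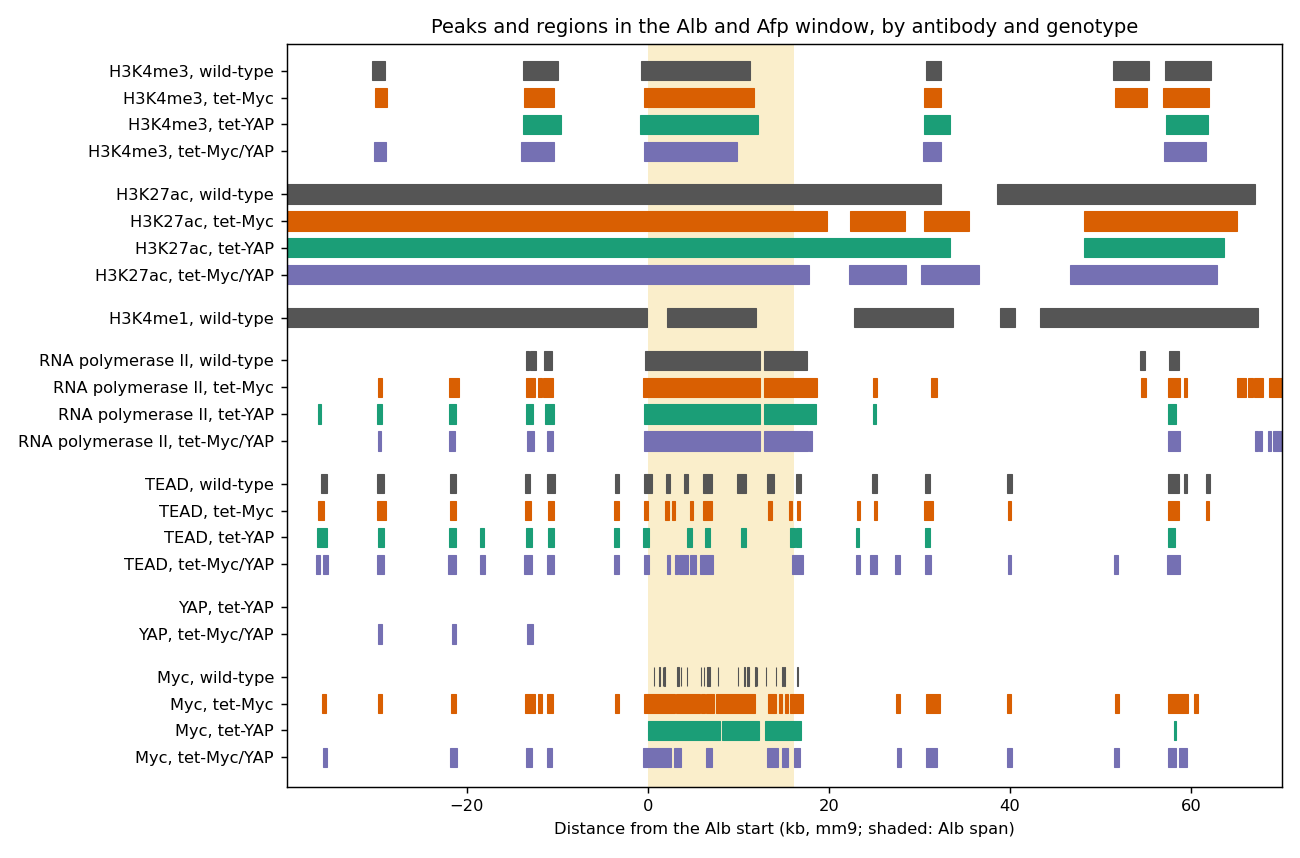
Peaks and regions of all 23 lists in the window, plotted against distance from the Alb start in kb; 1 row per antibody and genotype, bars drawn to scale with a thin outline so that narrow Myc peaks can be seen, and the Alb span shaded. Polymerase II and H3K27ac fill Alb in every genotype, the 3 YAP peaks all lie upstream of Alb, and wild-type Myc peaks lie along Alb and, for 1 of the 21, just past its end.

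The polymerase signal was called as a pair of long stretches. The longer began at -0.305 kb in wild-type and at -0.482, -0.469 and -0.376 kb in tet-Myc, tet-YAP and doubly transgenic liver. It was 12717 bp wide in wild-type liver, 12921 bp in tet-Myc, 12896 bp in tet-YAP liver and 12790 bp in tet-Myc/YAP. By width it ranked 152 of 39181, 379 of 74914, 262 of 54617 and 332 of 64678 in those lists. A gap of 398, 392, 396 and 423 bp followed at about 12.4 to 12.8 kb, at the same position in every genotype, and the shorter stretch then ran beyond the end of Alb.

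By strength the longer stretch had a fold enrichment of 46.24 in wild-type (rank 268), 56.59 in tet-Myc liver (rank 22), 56.68 in tet-YAP liver (rank 70) and 58.66 in tet-Myc/YAP (rank 35). The shorter stretch, at the 3' side, had 52.92 in wild-type (rank 136), 43.23 in tet-Myc liver (rank 409), 50.83 in tet-YAP liver (rank 152) and 30.55 in tet-Myc/YAP (rank 2165). In wild-type the strongest polymerase signal of the window was therefore on the 3' stretch, with its summit at 14.3 kb, and in each transgenic genotype it was on the long stretch, with its summit at 0.087, 0.862 and 0.092 kb from the start in tet-Myc, tet-YAP and doubly transgenic liver. Set against the wild-type peak it overlapped, the 3' stretch had a fold enrichment ratio of 0.577 in tet-Myc/YAP, above 4.97% of the 33115 matched polymerase peaks, whose median ratio was 1.17. In tet-Myc the ratio was 0.817 against a median of 1.23, and in tet-YAP liver 0.961 against 1.12. In the same order of genotypes, summit pileups were 190, 358, 355 and 307 tags on the 3' stretch and 166, 469, 396 and 413 on the long one. They put the same stretch first in each genotype. In tet-Myc/YAP the 3' stretch stood less far below the long one by tags than by fold enrichment. The wild-type polymerase library was the shallowest of the 4, and the parts of depth and of the control signal in this shift were not tested.

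H3K27ac formed a continuous domain from before the window through Alb. The domain was 91071 bp in wild-type liver, 76243 bp in tet-Myc, 89677 bp in tet-YAP liver and 74075 bp in tet-Myc/YAP, and ranked by width 91, 138, 64 and 71 of lists of 17821 to 21854 regions whose median widths were 5946 to 8148 bp. In wild-type and tet-YAP it ran unbroken past Alb to 32.4 and 33.3 kb. In tet-Myc and tet-Myc/YAP it stopped soon after Alb and left gaps of 2460 bp (19.8 to 22.3 kb) and 4348 bp (17.8 to 22.2 kb), followed by gaps of 2123 and 1689 bp further on. All 4 gaps exceeded 1 kb, so joining regions under 1 kb apart did not close them. The next region downstream began at 38.6 kb in wild-type but at 48.2, 48.2 and 46.6 kb in tet-Myc, tet-YAP and doubly transgenic liver. The sources used here give neither depth nor cutoffs for the H3K27ac libraries, and their part in these borders was not tested.

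H3K4me1, measured in wild-type alone, covered 99.7% of the upstream flank, 61.4% of Alb and 68.1% of the downstream flank. Its upstream region was 41551 bp wide and ended just before the Alb start, and the next began at 2.06 kb, so the Alb start lay between them.

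The 6 places with H3K4me3 in wild-type, numbered 1 to 6 along the window, served as anchors and were chosen after their values were seen. Places 1 and 2 lay upstream of Alb (-30.5 to -29.0 kb and -13.8 to -9.91 kb), place 3 covered the Alb start and most of the gene (-0.808 to 11.2 kb), and places 4, 5 and 6 lay downstream (30.7 to 32.4, 51.3 to 55.4 and 57.1 to 62.2 kb). H3K4me3 at these places was found again in tet-Myc at 6 of 6 (90.5% of all wild-type regions), in tet-YAP at 4 of 6 (82.3%) and in tet-Myc/YAP at 5 of 6 (90.9%). Both wild-type H3K27ac regions of the window were found again in every transgenic list, against 92.6% of all regions in the tet-Myc list, 92.2% in the tet-YAP list and 89.5% in the tet-Myc/YAP list. The members are too few for these counts to be set apart from the shares over the lists.

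Place 3, over the Alb start and body, had the widest H3K4me3 region of the window in every genotype. It measured 12041 bp in wild-type liver, 12165 bp in tet-Myc, 13073 bp in tet-YAP liver and 10288 bp in tet-Myc/YAP, and ranked by width 709, 292, 481 and 438 of 16014 to 19486 regions with median widths of 2524 to 3498.5 bp. By score it was less extreme, with 67.1%, 65.9%, 61.2% and 67.4% of the list below it. The Alb region was therefore wide and of middling score in each of the lists, with little change in its standing.

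Place 5 had no H3K4me3 call in either genotype with the YAP transgene. In wild-type it carried an H3K4me3 region of 4022 bp, with a score above 41.6% of its list, and in tet-Myc a region of 3537 bp, above 31.9%. Polymerase II peaked there with a fold enrichment of 6.0 in wild-type liver and 11.8 in tet-Myc, and no polymerase peak was called in tet-YAP or tet-Myc/YAP. H3K27ac covered 100% of place 5 in all 4 genotypes. Myc was called there in tet-Myc and in tet-Myc/YAP, with fold enrichments of 9.05 and 12.02 (percentiles 56.9 and 58.6), and TEAD in tet-Myc/YAP alone, with 5.39 (18.1). Place 1, weakly marked in wild-type liver (above 7.33% of the list), was missing in tet-YAP only. The tet-YAP H3K4me3 list was the shortest, with 16014 regions against 18772 to 19486, and the tet-Myc/YAP list was the longest. The part of list length in these missing calls was not tested.

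Place 6 was the strongest downstream site. Its H3K4me3 region was the highest-scoring of the window in wild-type, above 79.7% of the list, and had 68.2%, 54.9% and 62.5% of the list below it in tet-Myc, tet-YAP and doubly transgenic liver. Polymerase II there reached a fold enrichment of 20.5 in wild-type (percentile 91.1), 35.65 in tet-Myc liver (98.3), 13.96 in tet-YAP liver (85.1) and 22.74 in tet-Myc/YAP (92.9). By fold enrichment, place 6 was the most strongly occupied place outside Alb in all 4 genotypes. By summit pileup it was not so in tet-YAP liver, with 81 tags against 96 at the polymerase peak at -10.8 kb. The fold enrichment of that upstream peak was 12.12.

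Place 4 kept H3K4me3 in every genotype and had little polymerase. A polymerase peak was called there in tet-Myc alone, with a fold enrichment of 4.66 (percentile 48.2), in the deepest of the 4 libraries. Myc was called there in tet-Myc and tet-Myc/YAP, with fold enrichments of 7.4 and 9.15 and percentiles of 41.0 and 41.2.

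**Figure D2:**
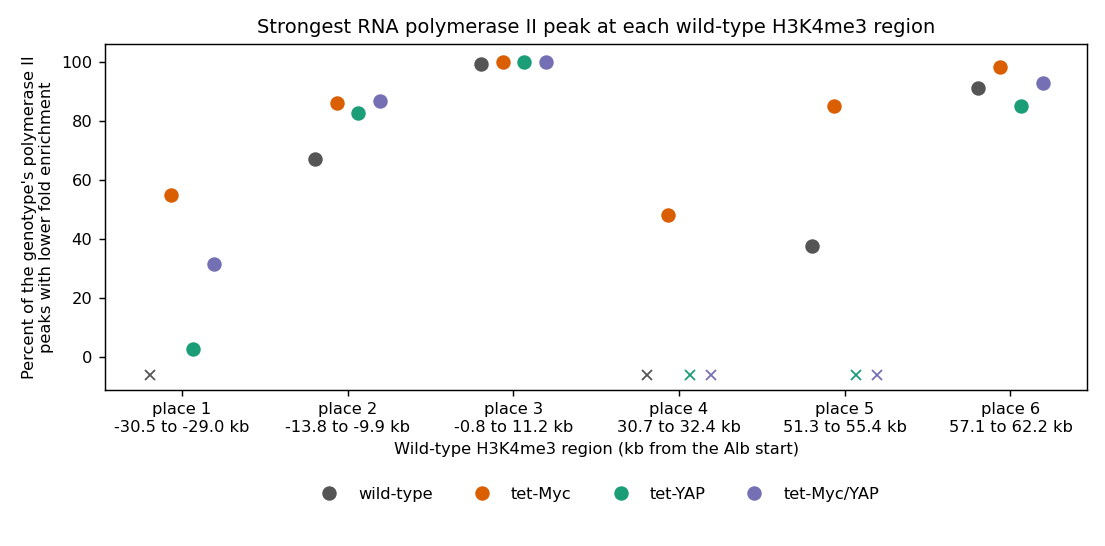
Strongest RNA polymerase II peak at each of the 6 wild-type H3K4me3 places, as the percent of that genotype's polymerase II peaks with lower fold enrichment; points are single libraries and crosses below 0 mark no peak. Place 3, on Alb, sits near the top in all 4 genotypes, and place 5 has a peak in wild-type and tet-Myc only.

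Polymerase peaks of the flanks varied with the genotype and with the depth of its library. The window held 7 in wild-type, 17 in tet-Myc liver, 9 in tet-YAP liver and 12 in tet-Myc/YAP, in the same order as the depths of 20.9, 50.6, 37.7 and 45.8 M tags. With the polymerase lists cut to an equal length of 39181 peaks, the counts were 7, 14, 7 and 8. There tet-Myc stayed highest and tet-YAP equalled wild-type. The part of depth in these counts was not tested. Wild-type peaks found again were 7 of 7 in tet-Myc (90.7% over the list), 6 of 7 in tet-YAP liver (84.5%) and 6 of 7 in tet-Myc/YAP (84.5%). Peaks with no wild-type counterpart were 11 of 17 in tet-Myc (62.3%), 4 of 9 in tet-YAP liver (47.1%) and 7 of 12 in tet-Myc/YAP (56.6%). The shares in the window lay near those of the whole lists.

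A polymerase peak near -21.7 kb was called in the 3 transgenic lists and not in wild-type, with fold enrichments of 8.35, 7.75 and 7.78 in tet-Myc, tet-YAP and doubly transgenic liver. It coincided with a TEAD site described below. The same held at -29.6 to -29.8 kb, where the 3 transgenic peaks were weaker, at 5.0, 3.37 and 4.37.

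TEAD was spread over the whole window. There were 19 TEAD peaks in wild-type, 20 in tet-Myc liver, 16 in tet-YAP liver and 22 in tet-Myc/YAP, and among the 23971 windows of 110 kb in the genome this window ranked 20, 34, 48 and 38 by bases covered with TEAD. With the TEAD lists cut to an equal length of 32486 peaks the counts were 19, 10, 16 and 14, which put tet-Myc and tet-Myc/YAP below wild-type. By bases covered it ranked 439, 806, 670 and 895 for polymerase and 318, 129, 324 and 283 for H3K4me3. Wild-type TEAD peaks were found again at 16 of 19 in tet-Myc (82.3% over the list), 13 of 19 in tet-YAP liver (73.0%) and 15 of 19 in tet-Myc/YAP (87.8%). Those without a wild-type counterpart were 4 of 20 (36.8%), 3 of 16 (23.6%) and 7 of 22 (44.7%), shares below those of the lists on counts of 3 to 7 peaks.

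Joined where they overlapped, the TEAD peaks made 25 sites, of which 12 had TEAD in all 4 genotypes. Upstream of Alb 7 of 8 sites were shared by all 4, against 2 of 7 within Alb and 3 of 10 downstream. The same share over all TEAD sites of the lists was not computed, so these counts describe the window alone. Sites were joined in chains, so peaks at a shared site need not all overlap, as for wild-type and tet-Myc at 4.36 kb. The upstream site nearest Alb spanned its start. Fold enrichment at the upstream sites differed between genotypes, as given below. Of the 19 wild-type TEAD peaks, 19 lay in H3K27ac (81.9% over the list) and 17 in H3K4me1 (82.4%). In wild-type, H3K27ac covered 91.6% of the window and H3K4me1 78.6%, so these overlaps were largely set by position.

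The shared sites moved both up and down in their lists. Of the 12, 6 stood higher and 6 lower than in wild-type in tet-Myc, 6 higher and 6 lower in tet-YAP liver, and 8 higher and 4 lower in tet-Myc/YAP. The median ratio of fold enrichment over wild-type was 1.14 for the 16 matched peaks of the window in tet-Myc, where it was 1.37 over the list. In tet-YAP the medians were 1.07 and 1.08, and in tet-Myc/YAP 1.53 and 1.69. The medians of the window were thus at or below those of the lists. The 3 sites at 6.50, -10.7 and -21.6 kb, picked out after their values were seen, had ratios above the list median in all 3 transgenic genotypes.

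The site within Alb at 6.50 kb was the strongest TEAD peak of the window in tet-Myc and tet-Myc/YAP. Its fold enrichment was 7.76 in wild-type, 36.64 in tet-Myc liver, 9.37 in tet-YAP liver and 48.12 in tet-Myc/YAP, with summit pileups of 54, 185, 74 and 336 tags from TEAD libraries of nearly equal depth. Its percentile was 77.6, 99.0, 80.9 and 99.0. The ratio over wild-type was 4.72 in tet-Myc (rank 141 of 27498 matched peaks), 1.21 in tet-YAP liver (rank 9068 of 24384) and 6.20 in tet-Myc/YAP (rank 414 of 29347). The high values were those of the libraries with the Myc transgene, and no YAP peak was called here. The median ratio over the list was also higher in these libraries, at 1.37 in tet-Myc and 1.69 in tet-Myc/YAP against 1.08 in tet-YAP. With 1 library each, genotype and library cannot be told apart.

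The site at -10.7 kb, in place 2, followed a similar order. Fold enrichment was 8.12, 19.56, 10.11 and 46.52 across wild-type, tet-Myc, tet-YAP and doubly transgenic liver, and the pileups were 64, 136, 90 and 232 tags. The ratios over wild-type were 2.41 (rank 2787), 1.25 (rank 8268) and 5.73 (rank 567). In tet-Myc and tet-Myc/YAP the pileups differed less from wild-type than the fold enrichment did. This site carried a Myc peak in tet-Myc and tet-Myc/YAP and none in the other genotypes.

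At -21.6 kb TEAD was among the weakest peaks of the wild-type list, with a fold enrichment of 3.33 (percentile 1.22), and stood higher in the lists of all 3 transgenic genotypes, at 10.16 (75.7), 7.0 (61.1) and 18.96 (88.8). The ratios of 3.05, 2.10 and 5.69 ranked 1116, 1048 and 582. The pileups of 29, 60, 48 and 97 tags had the same order but differed less from wild-type than the fold enrichment did. A neighbouring site at -18.3 kb had TEAD only in the genotypes with the YAP transgene, with a fold enrichment of 4.33 in tet-YAP liver and 9.09 in tet-Myc/YAP.

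The TEAD site of place 1, at -29.4 kb, was the strongest of the window in wild-type and tet-YAP. Its fold enrichment was 12.94 in wild-type (rank 1426), 26.31 in tet-Myc liver (rank 1121), 12.25 in tet-YAP liver (rank 3046) and 17.21 in tet-Myc/YAP (rank 7021). The pileups were 74, 131, 97 and 154 tags, so tet-Myc/YAP was highest by tags at the summit and tet-Myc by fold enrichment and rank. At the Alb start itself TEAD was moderate, with 6.66, 6.80, 5.10 and 10.18 and percentiles of 64.6, 46.3, 22.9 and 66.6. The promoter printed above holds no GGAATG in its 250 bases, which says nothing of sequence beyond them.

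**Figure D3:**
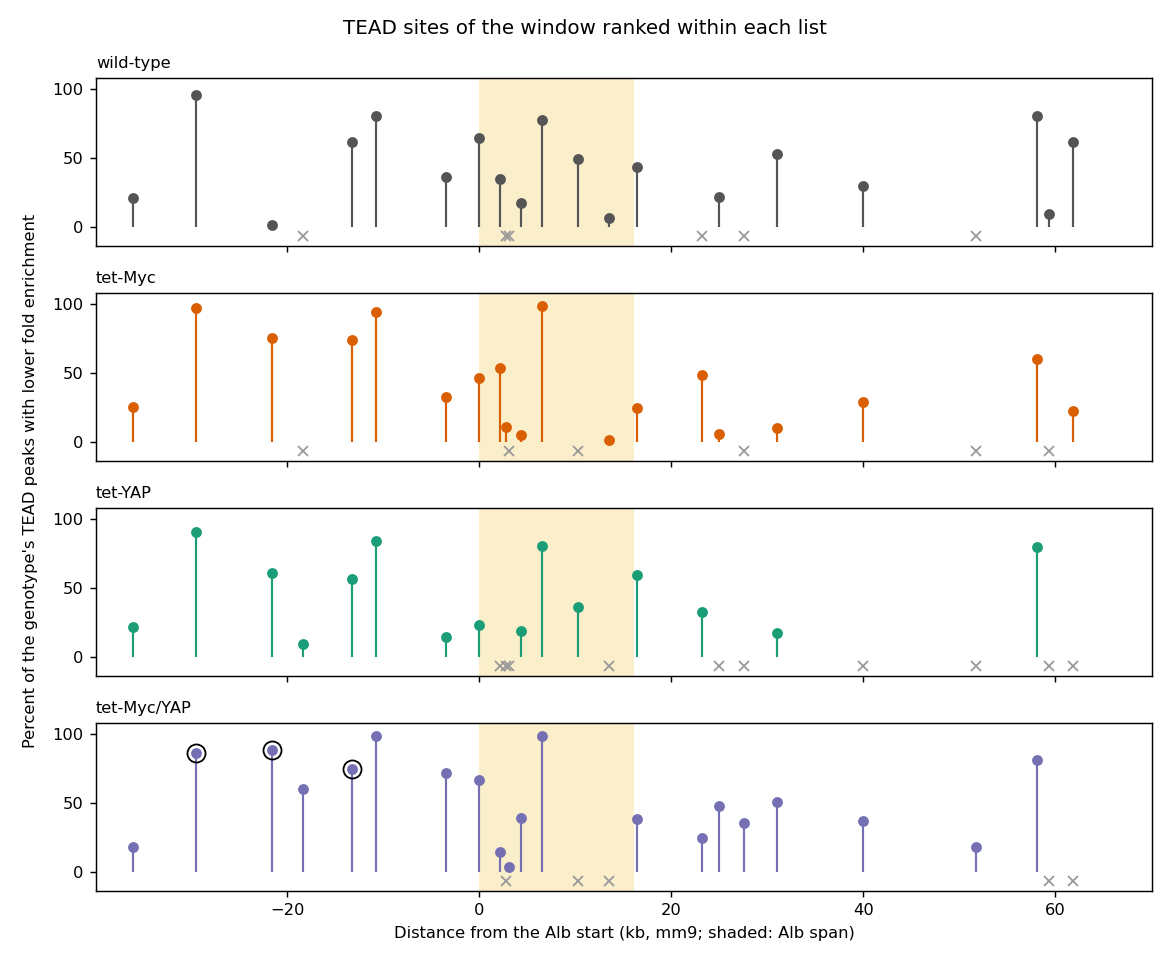
The 25 TEAD sites of the window by distance from the Alb start in kb, with height the percent of that genotype's TEAD peaks with lower fold enrichment; points are single libraries, crosses mark sites without a peak, and circled points overlap a YAP peak. The sites at -10.7 and 6.50 kb reach 98.9 and 99.0 in tet-Myc/YAP, and the circled sites are all upstream of Alb.

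YAP was called in the window in tet-Myc/YAP alone, at 3 peaks upstream of Alb. With the YAP lists cut to an equal length of 1328 peaks, tet-Myc/YAP had 0 in the window as well, and at a −log10 q of at least 10 it had 1. They lay at 90860082 to 90860556, 90868263 to 90868668 and 90876550 to 90877241, with summits at -29.6, -21.4 and -13.2 kb. Their fold enrichments of 7.07, 5.09 and 5.91 stood above 55.8%, 7.87% and 25.1% of the 11719 YAP peaks of that genotype, so these were middling to weak YAP sites. All 3 overlapped TEAD, polymerase II and H3K27ac of the same genotype, 2 overlapped H3K4me3 and 2 overlapped Myc. Over the list, 94.2% of YAP peaks overlapped TEAD, 85.7% polymerase, 96.7% H3K27ac, 78.1% H3K4me3 and 91.1% Myc. H3K27ac covered 100% of the upstream flank in tet-Myc/YAP, so that overlap was fixed by position.

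None of the 3 had a counterpart in tet-YAP, as was the case for 95.3% of all YAP peaks of tet-Myc/YAP, and tet-YAP had 0 YAP peaks in the window. The tet-YAP list held 1328 peaks and came from the library with the 56 bp fragment estimate. The YAP lists were also called against controls of unlike size, 25.2 M tags in tet-YAP and 167.0 M in tet-Myc/YAP. The genotypes and the libraries therefore cannot be told apart here. No YAP peak lay within Alb in either genotype, although TEAD at 6.50 kb in tet-Myc/YAP ranked 516 of 52392.

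Myc differed between the lists of the genotypes in how much of Alb it covered. Its peaks took up 12.04% of the Alb span in wild-type, 83.9% in tet-Myc liver, 94.1% in tet-YAP liver and 36.6% in tet-Myc/YAP, and the window held 21, 22, 5 and 16 Myc peaks. With the Myc lists cut to an equal length of 4775 peaks, which kept the whole wild-type list, these counts were 21, 0, 4 and 0. By bases covered with Myc the window ranked 21, 7, 15 and 66 of the 23971 windows. High coverage in tet-YAP, which has no Myc transgene, came from 4 wide peaks. Low coverage in wild-type came from the list with a fragment estimate of 51 bp and a median peak width of 81 bp. For wild-type coverage, the genotype and the library therefore cannot be told apart.

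The 21 wild-type peaks were 51 to 260 bp wide with pileups of 8 to 15 tags. Their fold enrichments of 6.0 to 18.38 stood at percentiles of 6.41 to 91.9, so they were spread over the range of their own list. All 21 had a −log10 q (an adjusted p-value of the peak caller) below 10, the highest being 8.86, and only 399 of the 4775 wild-type Myc peaks reached 10. Of the 21, 20 lay within the Alb span, with summits from 0.701 kb on, and 1 just beyond its end at 16.6 kb. All 21 lay in polymerase (86.7% over the list) and in H3K27ac (91.3%), and 6 overlapped TEAD (28.6% against 70.1%). In wild-type, polymerase covered 97.5% of Alb and H3K27ac 100%, so the overlaps with these 2 were nearly fixed by position. TEAD covered 24.5% of the Alb span in wild-type, near the 28.6%. For peaks that lie along Alb, the 70.1% over the list is thus no like comparison. The 21 peaks thus followed the body of Alb and not its start, in the library whose fragment estimate equalled the tag length.

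In tet-YAP the picture was of 4 peaks of 3746, 4248, 4013 and 3977 bp from -0.024 kb to beyond the end of Alb, with fold enrichments of 14.6, 14.0, 10.4 and 10.7. By width they ranked 30, 19, 22 and 24 of 13227 Myc peaks, and by fold enrichment 573, 634, 1551 and 1440. The gap between the last pair fell at the break in polymerase II, and the fifth tet-YAP peak, with 4.81, lay in place 6. The Myc signal in this library covered 94.4% of the long polymerase stretch and 82.4% of the other.

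In tet-Myc the strongest peak lay over the Alb start, 3414 bp wide with its summit at 1.09 kb and a fold enrichment of 13.44 (rank 6541 of 32592). A peak at the far end, with its summit at 16.4 kb, had the same fold enrichment of 13.44. Between them lay 7 further peaks along Alb with 2.90 to 10.02, of which the widest, 4388 bp, ranked 21 by width but had only 7.07% of the list below it by fold enrichment. Outside Alb tet-Myc had 7 peaks upstream and 6 downstream of the gene's end, with percentiles from 4.2 to 73.3.

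In tet-Myc/YAP the strongest Myc peak again lay over the start, with its summit at -0.234 kb and a fold enrichment of 15.72 (rank 8065 of 30327). The body of Alb was less covered, with 33.0% of the long polymerase stretch under Myc against 92.2% in tet-Myc and 94.4% in tet-YAP. This library was the shallowest of the Myc libraries. Upstream it had 4 peaks, at -35.6, -21.6, -13.1 and -10.8 kb with fold enrichments of 5.50, 9.55, 6.0 and 10.28. Downstream of the gene it had 7, and the strongest of them, at 57.8 kb in place 6, reached 12.33 (percentile 60.1).

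**Figure D4:**
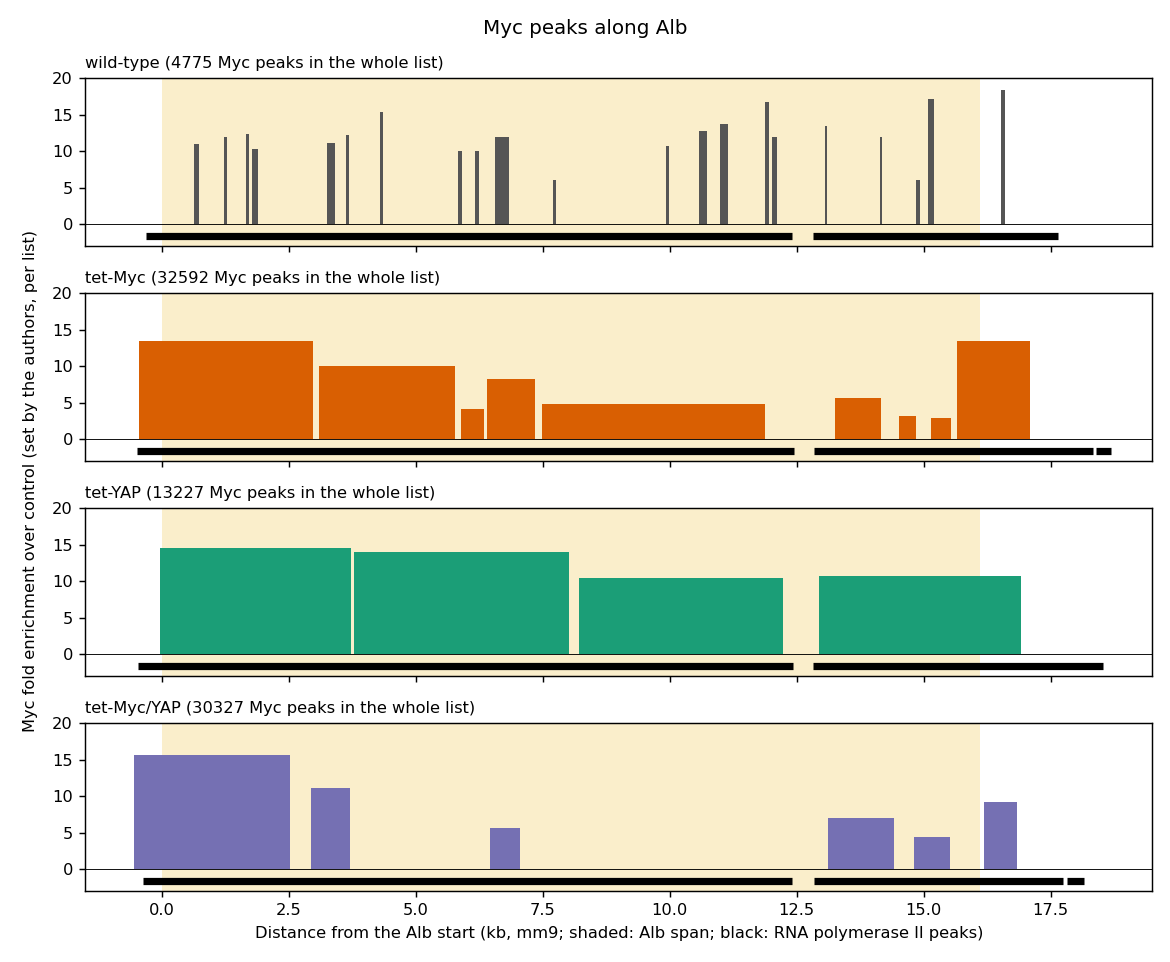
Myc peaks along Alb in each genotype, against distance from the Alb start in kb and drawn at their width with height the fold enrichment over control; black bars below 0 are RNA polymerase II peaks of the same genotype and the Alb span is shaded. Wild-type has 21 narrow peaks and tet-YAP 4 wide ones, of which the last pair is parted at the polymerase gap. In tet-Myc/YAP most of the middle of Alb is without a peak.

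By rank, Alb was among the long polymerase stretches most covered by Myc in wild-type, tet-Myc and tet-YAP liver. In tet-Myc/YAP it stood lower. Among the 500 widest wild-type polymerase stretches, each at least 6730 bp, the Alb stretch ranked 12 by the share covered by Myc in wild-type (12.96%, median 0%), 5 in tet-Myc liver (92.2%, median 12.9%), 2 in tet-YAP liver (94.4%, median 7.87%) and 89 in tet-Myc/YAP (33.0%, median 8.24%). This comparison was added after the lists had been seen. The part of the polymerase signal in this coverage was not tested.

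The 21 wild-type Myc peaks were found again at 19 in tet-Myc (77.1% over the list), 21 in tet-YAP liver (70.2%) and 11 in tet-Myc/YAP (77.2%). Myc peaks with no wild-type counterpart were 13 of 22 in tet-Myc (91.5%), 1 of 5 in tet-YAP liver (82.2%) and 10 of 16 in tet-Myc/YAP (91.0%). The narrow wild-type peaks made 6 once those under 1 kb apart were joined. Myc peaks covered 83.9% of Alb in tet-Myc, 94.1% in tet-YAP liver and 36.6% in tet-Myc/YAP. Recovery in tet-Myc and tet-YAP was thus largely set by this coverage, and the shares over the lists are no like comparison. Starting from tet-YAP in place of the wild-type library, 5 of 5 peaks were found again in tet-Myc (89.9% over the list) and 4 of 5 in tet-Myc/YAP (89.5%).

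Most TEAD sites carried Myc where the Myc transgene was present. Of the 25 TEAD sites, 21 had a Myc peak in tet-Myc, 18 in tet-Myc/YAP, 10 in tet-YAP liver and 6 in wild-type. Within Alb lay 7, 6, 7 and 5 of these, in the same order. Myc covered 83.9% of Alb in tet-Myc and 94.1% in tet-YAP, so the overlaps within Alb were largely set by position there. Counted as TEAD peaks of the same genotype, 17 of 20 overlapped Myc in tet-Myc (51.8% over the list), 15 of 22 in tet-Myc/YAP (50.2%), 7 of 16 in tet-YAP liver (29.7%) and 4 of 19 in wild-type (7.83%). The order of the genotypes was the same over the lists. Upstream of Alb, 7 of 8 sites had Myc in tet-Myc and 5 in tet-Myc/YAP, but 1 in tet-YAP, at the Alb start, and 0 in wild-type. Of the 3 sites with YAP, all had Myc in tet-Myc, and those at -21.6 and -13.2 kb had it in tet-Myc/YAP too.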

How the data were processed

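ChIP-seq peak lists of 23 mouse liver samples were used, and the input sample of the 24 has no list and was not analysed here. The submitters' processing notes name BWA 0.6.2, SAMtools and MACS2 2.0.9, and mm9 as the build. Each of the 14 narrow lists (RNA polymerase II, TEAD, YAP and Myc) was called on its own library, per the file headers, at a p-value cutoff of 0.00001. The columns deposited by the authors hold the summit's pileup signal, a ratio (fold enrichment over control), and −log10 transformed p and q values. The 9 broad lists (H3K4me3, H3K27ac and H3K4me1) were deposited by the authors with a score per region, used for ranks within a list only, and its scale, the cutoffs and the depth of these libraries are not stated in the sources used here. The narrow libraries held 16.9 to 50.6 M ChIP tags.

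Peaks were matched by overlap of at least 1 bp in Python 3.11.15 (pandas 2.3.3, numpy 2.4.6), with code tested on simulated data, where 100 of 100 checks passed. Figures were drawn with matplotlib 3.10.9. Samples were grouped by antibody and genotype as labelled, 1 library each, so no test was run between genotypes. The members, motifs and comparisons were chosen with earlier results of these data known. Peaks were named by rule: per list the strongest peak by fold enrichment or the widest region, every Myc and YAP peak, and peaks at the Alb start; other named peaks were chosen after their values were seen. Shares of the window's peaks were computed beside the same share over the whole list. No mm9 annotation was used, so no exon, Afp or pathway gene was placed, and promoter sequences came from RefSeq (GRCm38.p6), matched by symbol for 2 of 2 members. Alternatives were a −log10 q of at least 10, narrow lists cut to equal length, peaks under 1000 bp apart joined, peaks widened to 500 bp, 50% overlap, the summit inside, ranking by −log10 q, shifted windows and counting peaks.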

Additional observations from a re-analysis of the deposited data

How the results depend on the processing

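Of 229 recomputed values, 167 stayed within 1.5 times the count, or within the counting interval of the percentile, and 62 moved. Widening peaks to 500 bp, requiring 50% overlap, placing peaks by their middle or summit and shifting the windows kept every value within those bounds, with smaller changes such as 14 in place of 19 wild-type Myc peaks found again in tet-Myc at 50% overlap. At a −log10 q of at least 10, TEAD peaks in the window numbered 11, 11 and 9 in wild-type, tet-Myc and tet-YAP, YAP peaks 1, and Myc peaks 0 in wild-type and 12 in tet-Myc. Wild-type TEAD peaks found again were then 7, 7 and 9 in tet-Myc, tet-YAP and doubly transgenic liver, and wild-type Myc peaks 0 in each, since no wild-type Myc peak was left. The percentile of the strongest peak became 99.39, 99.96, 99.80 and 99.91 for polymerase II, 93.58, 98.76, 86.48 and 98.80 for TEAD (wild-type, tet-Myc, tet-YAP, tet-Myc/YAP), 6.81 for YAP, and 73.29, 91.89 and 67.23 for Myc in tet-Myc, tet-YAP and doubly transgenic liver, because weaker peaks left the lists.

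With lists cut to equal length by −log10 q (4775 Myc, 32486 TEAD and 1328 YAP peaks), the window held 10 TEAD peaks in tet-Myc and 14 in tet-Myc/YAP, 0 YAP peaks, and 0 Myc peaks in tet-Myc and tet-Myc/YAP, while wild-type had 21 Myc peaks and tet-YAP 4. The order of the genotypes by TEAD and by Myc peaks thus turned, with wild-type highest in both. Found again were then 9 TEAD peaks in tet-Myc and 0 Myc peaks in tet-Myc and tet-Myc/YAP. Ranking by −log10 q put the strongest wild-type Myc peak at 86.68. Joining peaks left 4, 9 and 7 polymerase II peaks in wild-type, tet-Myc and tet-Myc/YAP and 6, 12 and 2 Myc peaks in wild-type, tet-Myc and tet-YAP, and put the widest polymerase stretch at percentiles of 98.93, 98.11, 98.71 and 98.17 by width.

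Counting peaks in place of bases covered, the window's percentile among all windows was 98.69, 96.20 and 97.13 for H3K4me3 in tet-Myc, tet-YAP and doubly transgenic liver, 76.32, 92.50, 74.21 and 91.29 for H3K27ac, 96.00 for H3K4me1, 91.84, 94.03, 90.67 and 92.01 for polymerase II in the 4 genotypes, 99.98, 99.97 and 99.88 for TEAD in wild-type, tet-Myc and tet-YAP, and 97.80 and 99.84 for Myc in tet-YAP and tet-Myc/YAP. Starting from tet-YAP in place of the wild-type Myc list, an alternative chosen after seeing the data, gave 5 of 5 peaks found again in tet-Myc and 4 of 5 in tet-Myc/YAP. No paired analysis was possible because each antibody and genotype had 1 library and the labels give no replicate numbers. With 1 library a group, differences between genotypes carry no error, and the part of depth in which weak peaks were called was not tested.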
